A study of Homo sapiens with 36 samples.

Results

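Neurotransmitter receptor genes were taken from the deposited gene table by symbol: the protein-coding genes named as ionotropic (GRIA, GRID, GRIK, GRIN) and metabotropic (GRM) glutamate receptors, GABA-A (GABR) and GABA-B (GABBR) receptors, nicotinic (CHRN) and muscarinic (CHRM) acetylcholine receptors, and adrenergic (ADR), dopamine (DRD) and serotonin (HTR) receptors. The rule found 99 genes among the 60675 genes of the table, of which 19586 were protein-coding. They comprised 19 GABA-A, 18 ionotropic glutamate, 17 serotonin, 16 nicotinic, 9 adrenergic, 8 metabotropic glutamate, 5 muscarinic, 5 dopamine and 2 GABA-B receptor genes.

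Poly(A) RNA was sequenced from 2 established human cell lines, SW1783, an astrocytoma line grown in L-15 medium without CO2, and HT29, a colorectal adenocarcinoma line grown in DMEM. For 24 h the cells received ACD, the aconite herb Aconitum carmichaeli Debeaux extracted in hot water, at 20 (low), 100 (medium) or 500 (high) µg/mL, beside a DMSO vehicle of the same batch (batch B). A separate batch (batch A) held 10 µM wortmannin, an inhibitor of phosphoinositide 3-kinases used as the positive control, and its own DMSO vehicle, and the labels give 0.1% DMSO for the vehicles. The 12 groups held 3 libraries each, 36 in all, and nothing in the labels says that the 3 came from separate cultures, so p-values measure the spread between these libraries.

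Neurotransmitter receptors fall into membrane channels opened by the transmitter and receptors coupled to G proteins. Ionotropic glutamate, GABA-A and nicotinic receptors are channels assembled from several subunits, which are copies of 1 gene's product in some receptors and products of different genes in others, while most serotonin receptors and the adrenergic, dopamine and muscarinic receptors act as single proteins through G proteins. They are best known from neurons, yet glial cells carry glutamate, GABA, adrenergic and serotonin receptors, and gut epithelium carries muscarinic, adrenergic and nicotinic receptors.

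Library totals ran from 15941250 to 33866636 counts, and a floor of 3 counts corresponded to 0.0886 to 0.188 CPM, the counts scaled to the library total, which covers counting error only. The share of counts on mitochondrial ribosomal RNA differed between the groups but did not rise with every step in dose. In SW1783 its mean was 0.932% (vehicle), 3.14% (low), 7.83% (medium) and 5.93% (high dose). The HT29 means, in the same order, were 1.18%, 1.09%, 2.10% and 11.96%. The high-dose HT29 library of replicate 2 stood apart from the others of its group. The vehicles of batches A and B with the same replicate number were closer to each other than those with different numbers, with a chi-square per degree of freedom of 1.46 to 1.64 against 2.04 to 17.7. All 10 colon epithelium markers had more than 10 counts in HT29. In SW1783, vimentin (VIM, 4366 CPM) and CD44 (2810 CPM) were high. The astrocyte markers GFAP (0.138 CPM), AQP4 (0 CPM) and S100B (0.113 CPM) were at or near 0, whereas SLC1A3, the glial glutamate transporter, was present. The neuronal markers TUBB3 (109 CPM), SNAP25 (34.8 CPM) and SYT1 (31.5 CPM) were present. More than 10 counts were reached by 5 of 10 astrocyte and mesenchymal glioma markers and by 6 of 10 neuronal markers in the SW1783 vehicle.

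Few receptor genes were transcribed in either line. A gene was counted as transcribed when its 3 batch B vehicle libraries averaged more than 10 counts, and 26 of the 99 receptor genes passed in SW1783 (26.3%) and 15 in HT29 (15.2%), beside 65.6% and 62.7% of all protein-coding genes. Both lines transcribed 9, SW1783 alone 17, HT29 alone 6, and neither line 67, of which 8 had no count in any of the 36 libraries. No metabotropic glutamate receptor passed in either line. The genes nearest the threshold in SW1783 were GABBR2 (9.0 counts) below it and ADRA2A (10.3 counts) above it, and in HT29 they were GRIK5 (8.33 counts) below and DRD4 and GRIN2C (11.3 counts each) above.

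**Figure D1:**
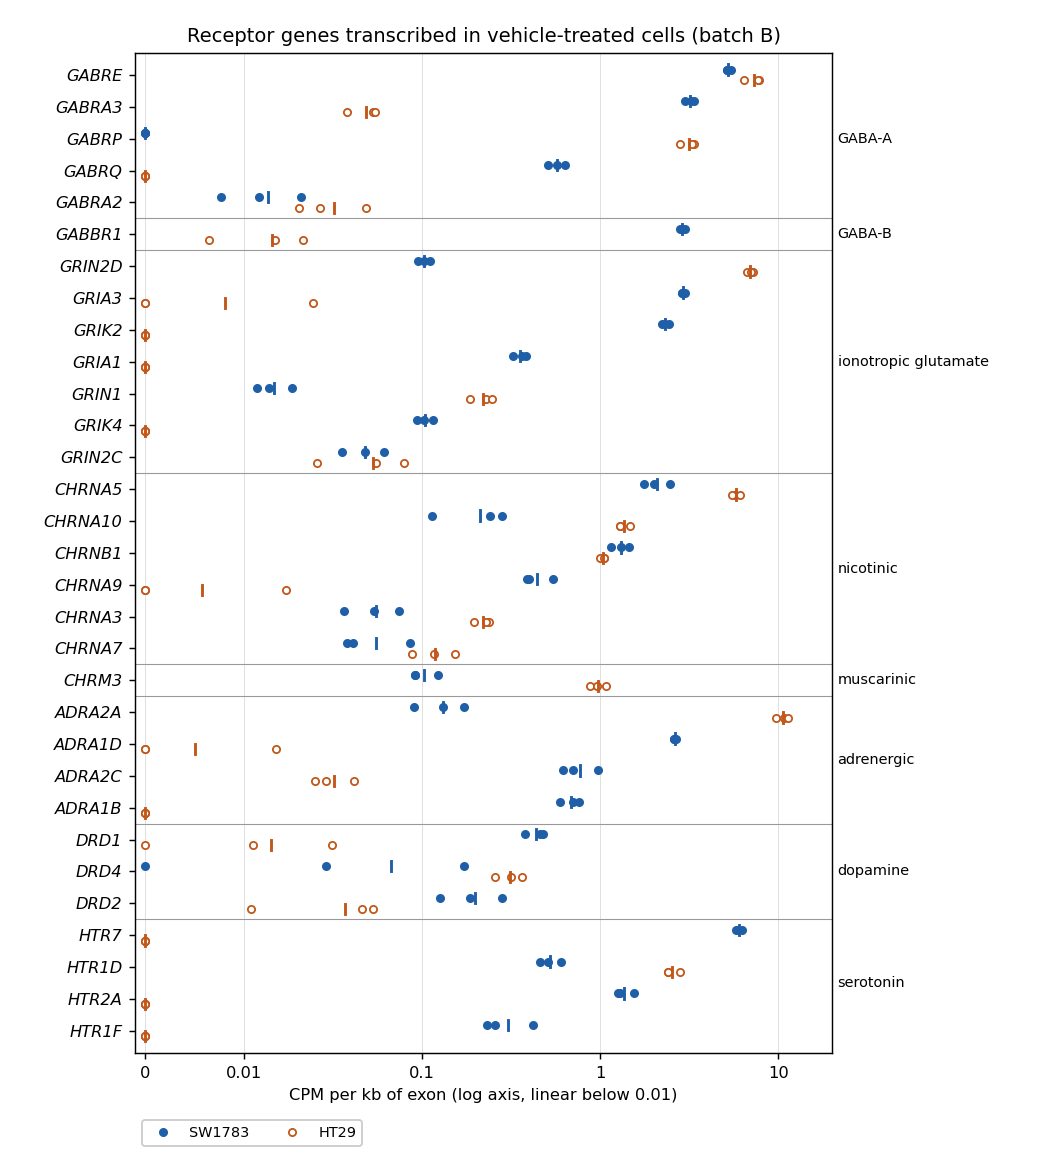
Levels of 31 of the 32 receptor genes transcribed in at least 1 line, in CPM per kb of exon on a log axis that is linear below 0.01. Each symbol is 1 of 3 batch B vehicle libraries of SW1783 (filled) or HT29 (open), ticks mark means, and genes are grouped by receptor family. HTR7 leads in SW1783 and is at 0 in HT29, whereas ADRA2A leads in HT29 at 10.6 CPM per kb and is at 0.131 in SW1783.

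Levels were put on the scale of CPM per kb of exon to set genes beside each other. Exon length here is the union of all annotated exons of a gene, not the length of the transcripts expressed. The order of genes on this scale therefore depends on the annotation and is approximate in both lines. The highest receptor levels in SW1783 vehicle cells were those of HTR7 (6.01 ± 0.237, SD, n = 3), GABRE (5.24 ± 0.151), GABRA3 (3.19 ± 0.172), GRIA3 (2.91 ± 0.070) and GABBR1 (2.89 ± 0.098). HTR7 is a serotonin receptor coupled to adenylyl cyclase, GABRE and GABRA3 encode the epsilon and alpha-3 subunits of GABA-A channels, GRIA3 is an AMPA receptor subunit, and GABBR1 is the ligand-binding subunit of the GABA-B receptor. HTR7 and GABRE did not overlap. GRIA3 and GABBR1 overlapped, and GABRA3 lay just above them, its lowest library at the level of their highest. ADRA1D (2.62 ± 0.037), the kainate receptor subunit GRIK2 (2.32 ± 0.110) and CHRNA5 (2.08 ± 0.350) followed.

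In HT29 vehicle cells the order was ADRA2A (10.6 ± 0.852), GABRE (7.30 ± 0.747), GRIN2D (6.95 ± 0.270), CHRNA5 (5.77 ± 0.314) and GABRP (3.16 ± 0.295) CPM per kb. ADRA2A is the inhibitory alpha-2A adrenergic receptor, GRIN2D a glutamate-binding NMDA receptor subunit, CHRNA5 an accessory nicotinic subunit and GABRP the pi subunit of GABA-A receptors, known from epithelia. GABRE and GRIN2D did not differ beyond their spread. HTR1D (2.53 ± 0.244), an inhibitory serotonin receptor, and CHRNA10 (1.35 ± 0.099) came next, and CHRM3 (0.970 ± 0.101), the muscarinic receptor of gut secretion and smooth muscle, was the highest muscarinic gene in both lines. DRD4 (0.311 ± 0.053) was the only dopamine receptor gene transcribed in HT29.

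Receptor subunits that are known to assemble with each other were present at unequal counts. These counts are not scaled to gene length, so they do not give the ratios of the subunits. In SW1783 the GABA-A genes GABRE, GABRA3 and GABRQ averaged 1045, 276 and 76.7 counts, but no beta subunit gene reached more than 9 counts in any of the 36 libraries and no gamma subunit gene more than 1. The GABA-B receptor works as a pair of GABBR1 and GABBR2, and SW1783 held 509 counts of GABBR1 beside 9.0 of GABBR2. The exons of GABBR1 overlap those of another gene, UBD, on the same strand in the annotation. In HT29 the NMDA receptor gene GRIN2D averaged 928 counts beside 59.3 of GRIN1, the subunit that every NMDA receptor needs, whereas SW1783 had 11.7 and 3.33 counts of them. Among nicotinic genes, CHRNA5 averaged 156 counts in SW1783 and 506 in HT29, while CHRNA3, with which it assembles, averaged 5.33 and 25.7 counts, and CHRNB4 did not exceed 5 counts in any library. CHRNA5 and CHRNA3 overlap on opposite strands of chromosome 15, and CHRNA7 has a near-identical copy, CHRFAM7A, so that its reads may be shared.

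Between the vehicles of both lines, 37 of the 49 receptor genes tested were called, 23 higher in SW1783 and 14 higher in HT29, beside 55.9% of all genes tested (30.3% and 25.6% in these directions). A call required a Benjamini-Hochberg adjusted p under 0.05 in the Wald test of DESeq2 and a change of more than 1.5-fold, and called genes are the differentially expressed genes (DEGs) below. In a bulk culture, fewer cells that transcribe a gene and less of its RNA per cell cannot be told apart.

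GRIK2 had 1178, 1505 and 1203 counts in the SW1783 vehicle libraries and none in those of HT29, at least 1500-fold higher when HT29 is set at 3 counts over its group. HTR7 had 399, 476 and 425 counts against none, which was at least 502-fold higher, and HTR2A 144, 200 and 138 counts against none, at least 186-fold higher. In the other direction, GABRP had 238, 496 and 334 counts in HT29 and none in SW1783, at least 308-fold higher in HT29. These 4 genes marked either line without overlap. On the log2 scale of SW1783 over HT29, ADRA2A gave −6.35 ± 0.28 (SE) and GRIN2D −6.07 ± 0.26, both higher in HT29, and GABBR1 gave 7.64 ± 0.49, higher in SW1783. GABRE lay close in both lines at −0.46 ± 0.08 (adjusted p = 6.28e-08, DESeq2), below the 1.5-fold limit, and CHRNB1, the beta subunit of the muscle nicotinic receptor, gave 0.36 ± 0.19 (adjusted p = 0.0725, DESeq2).

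The ACD extract lowered more receptor transcripts than it raised in SW1783. At the high dose 42 receptor genes had an adjusted p, and 11 were DEGs, 2 up and 9 down, beside 18.2% of all genes tested (9.57% down, 8.66% up) and 21.7% of those with a mean of 10 or more normalized counts. Another 5 passed the adjusted p but not the fold limit, and 46.5% of all genes tested passed the adjusted p. Of these 42 genes 33 had a negative fold change and the median was −0.51 on the log2 scale, beside −0.01 over all genes tested. By family, DEGs numbered 2 of 6 tested GABA-A genes, 3 of 5 adrenergic, 2 of 4 serotonin, 1 of 2 dopamine, 1 of 10 ionotropic glutamate, 1 of 7 nicotinic, 1 of 4 muscarinic and none of 2 GABA-B or 2 metabotropic glutamate genes. Summed over the 99 genes, receptor transcripts took 249 ± 2.70 CPM (SD, n = 3) in the vehicle, 240 ± 5.36 under low, 204 ± 3.60 under medium and 154 ± 0.373 under high dose. The libraries of each dose lay below all those of the dose before it, and no test was run on these sums. CPM is scaled to a total that includes mitochondrial ribosomal RNA, whose mean share was 0.932%, 3.14%, 7.83% and 5.93% in these groups. The sums were not corrected for it, so the small step between vehicle and low dose is not separated from this share. GRIK2 and GABRE, with the most counts, weigh most in the sums.

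**Figure D2:**
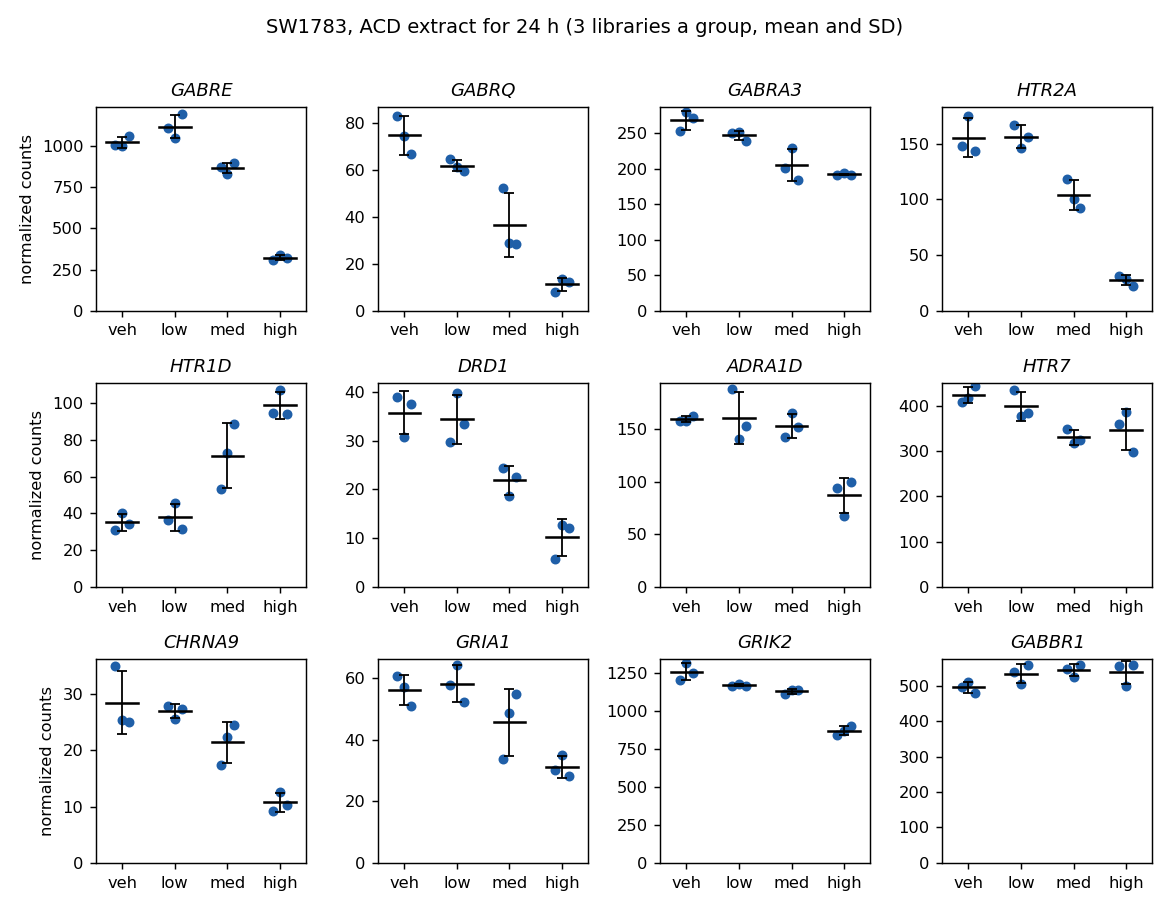
Normalized counts of 12 receptor genes in SW1783 cells under vehicle and the low, medium and high dose of the ACD extract. Points are libraries (3 a group), bars are means and whiskers are SD. GABRE, GABRQ and HTR2A are lowest at the high dose, HTR1D is highest there, and GABBR1 lies between 480 and 559 in all 12 libraries.

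Among the GABA-A genes, GABRE was the most abundant DEG. Its normalized counts were 1004, 998 and 1056 in the vehicle, 1109, 1047 and 1189 at the low dose, 873, 829 and 892 at the medium dose and 308, 336 and 318 at the high dose. The medium and high groups lay below every vehicle library, and the high group below every medium library. Its log2 fold change was −1.67 ± 0.08 (SE, adjusted p = 4.04e-104, DESeq2) at the high dose and −0.24 ± 0.07 (adjusted p = 0.00239) at the medium dose, short of the 1.5-fold limit.

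GABRQ, encodes the theta subunit. It had 83.0, 74.5 and 66.6 normalized counts in the vehicle, 64.4, 61.2 and 59.6 under low, 52.2, 28.9 and 28.3 under medium and 8.10, 13.5 and 12.2 at the high dose. The 4 groups did not overlap. The log2 fold change was −1.06 ± 0.28 (adjusted p = 0.00107, DESeq2) under medium and −2.71 ± 0.34 (adjusted p = 2.85e-14) at the high dose. GABRA3, whose gene lies between those of GABRE and GABRQ, went from 268 ± 13.9 (SD, n = 3) in the vehicle to 193 ± 1.03 at the high dose, a log2 fold change of −0.48 ± 0.12 (adjusted p = 2.19e-04, DESeq2) that stayed under the fold limit. The 3 genes are neighbours on chromosome X (GRCh38), GABRE on the minus strand at positions 151953124 to 151974680, GABRA3 on the minus strand at 152166234 to 152451315 and GABRQ on the plus strand at 152637895 to 152657542.

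Among the serotonin receptor genes, HTR2A fell and HTR1D rose. HTR2A encodes the Gq-coupled receptor of classical psychedelics, and HTR1D a Gi-coupled receptor targeted by triptans. HTR2A had 148, 175 and 144 normalized counts in the vehicle, 166, 146 and 156 under low, 118, 101 and 92.3 under medium and 31.3, 28.8 and 22.45 at the high dose. Low and vehicle libraries overlapped, and the higher doses were each below them. The log2 fold change was −0.59 ± 0.17 (adjusted p = 0.00353, DESeq2) at the medium dose, where it passed the fold limit narrowly and lost the call in 3 of 6 fits that left out 1 library, and −2.51 ± 0.22 (adjusted p = 5.00e-29) at the high dose.

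HTR1D had 30.7, 40.3 and 34.3 normalized counts in the vehicle, 36.55, 45.9 and 31.4 under low, 53.3, 72.7 and 88.6 under medium and 94.9, 107 and 94.5 at the high dose. The medium and high libraries were all above the vehicle. The log2 fold change was 1.03 ± 0.26 (adjusted p = 4.99e-04, DESeq2) under medium and 1.49 ± 0.25 (adjusted p = 1.95e-08) at the high dose, and the difference between these doses was 0.46 ± 0.23 (adjusted p = 0.104). HTR7, the highest receptor per length, had a log2 fold change of −0.28 ± 0.10 (adjusted p = 0.0162, DESeq2) at the high dose, short of the fold limit, and HTR1F gave −0.49 ± 0.43 (adjusted p = 0.386).

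GABRE, GABRQ and HTR2A, which fell, and HTR1D, which rose, are shown with the bases around their starts, since these 4 carried the clearest changes in SW1783. The windows are those of RefSeq on GRCh38.p14, 250 bases before to 50 bases after the gene's start, read 5′ to 3′ on the gene's strand. A window was found for 72 of the 99 receptor genes. They lie at chrX:151974627-151974926 (minus strand) for GABRE, chrX:152637645-152637944 (plus) for GABRQ, chr13:46897004-46897303 (minus) for HTR2A and chr1:23217453-23217752 (minus) for HTR1D. RefSeq gives 2 windows for HTR2A, and the one shown is the nearer to its GENCODE start, 23 bases away, so positions in it depend on that choice. Capitals mark matches, on either strand, to the 7 motifs searched, which are spelled out after the sequences.
GABRE: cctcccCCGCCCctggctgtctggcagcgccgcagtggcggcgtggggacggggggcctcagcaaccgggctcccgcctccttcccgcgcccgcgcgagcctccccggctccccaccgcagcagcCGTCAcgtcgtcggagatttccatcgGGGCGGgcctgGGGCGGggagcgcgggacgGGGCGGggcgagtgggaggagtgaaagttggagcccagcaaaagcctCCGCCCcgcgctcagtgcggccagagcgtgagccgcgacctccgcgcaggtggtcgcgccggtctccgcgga
GABRQ: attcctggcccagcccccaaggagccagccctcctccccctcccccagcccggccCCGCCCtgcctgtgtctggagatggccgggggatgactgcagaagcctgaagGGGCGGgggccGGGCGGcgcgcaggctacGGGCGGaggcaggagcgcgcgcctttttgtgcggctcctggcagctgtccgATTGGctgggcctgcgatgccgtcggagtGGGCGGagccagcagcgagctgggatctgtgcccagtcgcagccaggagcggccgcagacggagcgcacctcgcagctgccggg
HTR2A: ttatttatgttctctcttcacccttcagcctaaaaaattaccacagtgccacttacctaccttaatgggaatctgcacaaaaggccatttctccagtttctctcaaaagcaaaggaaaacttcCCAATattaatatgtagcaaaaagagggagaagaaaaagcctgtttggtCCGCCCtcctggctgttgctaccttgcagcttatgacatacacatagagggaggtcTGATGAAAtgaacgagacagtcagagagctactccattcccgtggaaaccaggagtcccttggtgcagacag
HTR1D: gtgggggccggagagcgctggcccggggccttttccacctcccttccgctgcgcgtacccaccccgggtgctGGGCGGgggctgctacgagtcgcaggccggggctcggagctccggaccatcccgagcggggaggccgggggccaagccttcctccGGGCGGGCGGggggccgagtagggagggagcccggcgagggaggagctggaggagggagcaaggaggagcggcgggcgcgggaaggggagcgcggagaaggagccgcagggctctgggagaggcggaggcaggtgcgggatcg
The GC box, GGGCGG, was present in all 4 windows, with 5 matches in GABRE, 5 in GABRQ, 1 in HTR2A and 3, of which 2 overlap, in HTR1D, and 45.0% of all 35116 RefSeq windows of this length held it. GABRE held 1 CRE half-site, the letters TGACG, 125 to 121 bases before the start, and 24.6% of all windows held one. The box spelled CCAAT occurred 1 time each in GABRQ and HTR2A, as did 34.6% of windows, and HTR2A held 1 composite ATF-CEBP site, written TGATGNAA, 22 to 15 bases before its start, beside 3.62% of windows. The AP-1 motif searched, TGANTCA, was found in none of these 4 windows and in 7.71% of all windows. The E-box motif searched, with the letters CACGTG, was likewise in none of the 4 and in 7.26% of all windows. The TATA box, searched as TATAAA, was in none of the 4 and in 11.5% of all windows.

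Of the adrenergic genes, ADRA1D and ADRA2A fell at the high dose. ADRA1D, a Gq-coupled alpha-1 receptor, had 158, 158 and 162 normalized counts in the vehicle and 93.8, 67.6 and 99.15 at the high dose, without overlap, and its log2 fold change was −0.88 ± 0.17 (adjusted p = 1.48e-06, DESeq2). At the medium dose ADRA1D had 143, 165 and 152 normalized counts and its log2 fold change was −0.05. ADRA2A was near the floor, with 10.25, 7.01 and 13.5 normalized counts in the vehicle and 2.315, 0.901 and 2.81 at the high dose, and its log2 fold change of −2.36 ± 0.81 (adjusted p = 0.00887, DESeq2) became −1.98 (adjusted p = 0.0621) without high-dose replicate 2. ADRA2C, named here after its values were seen, and ADRA1B gave −0.68 ± 0.34 (adjusted p = 0.0903, DESeq2) and −0.29 ± 0.28 (adjusted p = 0.438).

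DRD1, the Gs-coupled dopamine receptor, fell at the high dose. It had 38.9, 30.7 and 37.5 normalized counts in the vehicle, 24.3, 18.6 and 22.6 under medium and 5.79, 12.6 and 12.2 at the high dose. These 3 groups did not overlap. The log2 fold change was −0.71 ± 0.35 (adjusted p = 0.116, DESeq2) under medium and −1.77 ± 0.40 (adjusted p = 2.77e-05) at the high dose. DRD2, a Gi-coupled dopamine receptor, gave −0.57 ± 0.51 (adjusted p = 0.382, DESeq2) on 16.6 ± 6.58 normalized counts in the vehicle.

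Of the acetylcholine receptors, CHRNA9, a nicotinic subunit of cochlear hair cells, fell from 34.8, 25.4 and 25.0 to 9.26, 12.6 and 10.3 normalized counts at the high dose. The groups did not overlap and the log2 fold change was −1.39 ± 0.41 (adjusted p = 0.00180, DESeq2). CHRNA5 gave −0.38 ± 0.19 (adjusted p = 0.0924, DESeq2) and CHRNB1 −0.44 ± 0.19 (adjusted p = 0.0404), the latter under the fold limit. CHRM3 gave −0.50 ± 0.37 (adjusted p = 0.286, DESeq2). CHRM2, named here after its values were seen, was also a DEG, but with 6.15, 2.63 and 7.29 normalized counts in the vehicle and 0, 0.901 and 0.935 at the high dose it was within a few reads of the floor.

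Of 10 tested ionotropic glutamate genes GRIA1 was the DEG, and their median log2 fold change was −0.86. GRIA1, an AMPA receptor subunit, had 60.5, 56.95 and 51.0 normalized counts in the vehicle and 30.1, 35.1 and 28.1 at the high dose, without overlap, with a log2 fold change of −0.85 ± 0.27 (adjusted p = 0.00494, DESeq2). GRIK2, by counts the most abundant receptor gene of SW1783, had 1207, 1319 and 1252 normalized counts in the vehicle, 1112, 1142 and 1140 under medium and 842, 872 and 901 at the high dose. These groups did not overlap either, but the change of −0.53 ± 0.06 (adjusted p = 1.04e-19, DESeq2) stayed under the fold limit, as did that of GRIA3 at −0.53 ± 0.10 (adjusted p = 3.95e-07). GABBR1 gave 0.12 ± 0.08 (adjusted p = 0.255, DESeq2) at the high dose, and the 95% interval of that log2 fold change ran from −0.04 to 0.28.

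At the medium dose 20 receptor genes had an adjusted p and 3 were DEGs, HTR1D up and GABRQ and HTR2A down, beside 3.81% of all genes tested (2.34% up, 1.48% down). An adjusted p under 0.05, whatever the fold, was reached by 8 of the 20, beside 29.5% of all genes tested, and the 5 short of the fold limit were all negative. These were GABRE, GABRA3, HTR7, CHRNB1 and GRIK2. At the low dose 5 receptor genes had an adjusted p and DESeq2 called 0 of them, with 1 at an unadjusted p under 0.05, and edgeR also called 0, beside 0.118% of all genes tested. In the direct comparison of the high with the medium dose, 8 of 29 tested receptor genes were lower at the high dose and none higher, beside 10.2% of all genes tested (5.61% lower). The 8 were GABRE (−1.43 ± 0.08), GABRQ (−1.65 ± 0.36), HTR2A (−1.92 ± 0.23), ADRA1D (−0.83 ± 0.17), DRD1 (−1.07 ± 0.41), CHRNA9 (−0.996 ± 0.417), ADRA2A (−2.68 ± 0.80) and ADRA2C (−1.11 ± 0.33). The calls of CHRNA9 and DRD1 were not firm: CHRNA9 lost its call in 7 of 12 alternative fits (adjusted p up to 0.159, DESeq2) and DRD1 in 5 of 12 (up to 0.150). Leaving out any 1 high-dose library was among the fits that ended the call of CHRNA9. The comparisons of the doses share their vehicle libraries.

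The summed level of the 10 neuronal markers fell alongside, from 187 to 196 CPM in the SW1783 vehicle libraries to 163 to 177 under low, 129 to 136 under medium and 96.4 to 97.6 at the high dose. Of these markers 6 had more than 10 counts in the SW1783 vehicle and 1 was at 0. At the high dose SNAP25, TUBB3 and NEFL were DEGs down and MAP2 a DEG up. The summed astrocyte and mesenchymal glioma markers ran from 7119 to 7488 CPM in the vehicle and from 6973 to 7012 at the high dose, while 2 of these, SLC1A3 and NES, were DEGs down. VIM and CD44 made up most of this sum, so it says little about the other markers of the list. The median log2 fold change of the tested genes at the high dose was −0.90 in this list and −0.61 among neuronal markers. Summed colon epithelium markers fell too, from 241 to 250 CPM in the vehicle to 81.9 to 86.1. Of these, 2 were tested and both were DEGs down, so the fall was not particular to neuronal markers. The part of these shifts in the receptor results was not tested. Fits whose size factors left out mitochondrial and ribosomal RNA genes were among the alternatives, and they bear on the fold changes only. The part of the mitochondrial ribosomal RNA share in the CPM sums was not tested.

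**Figure D3:**
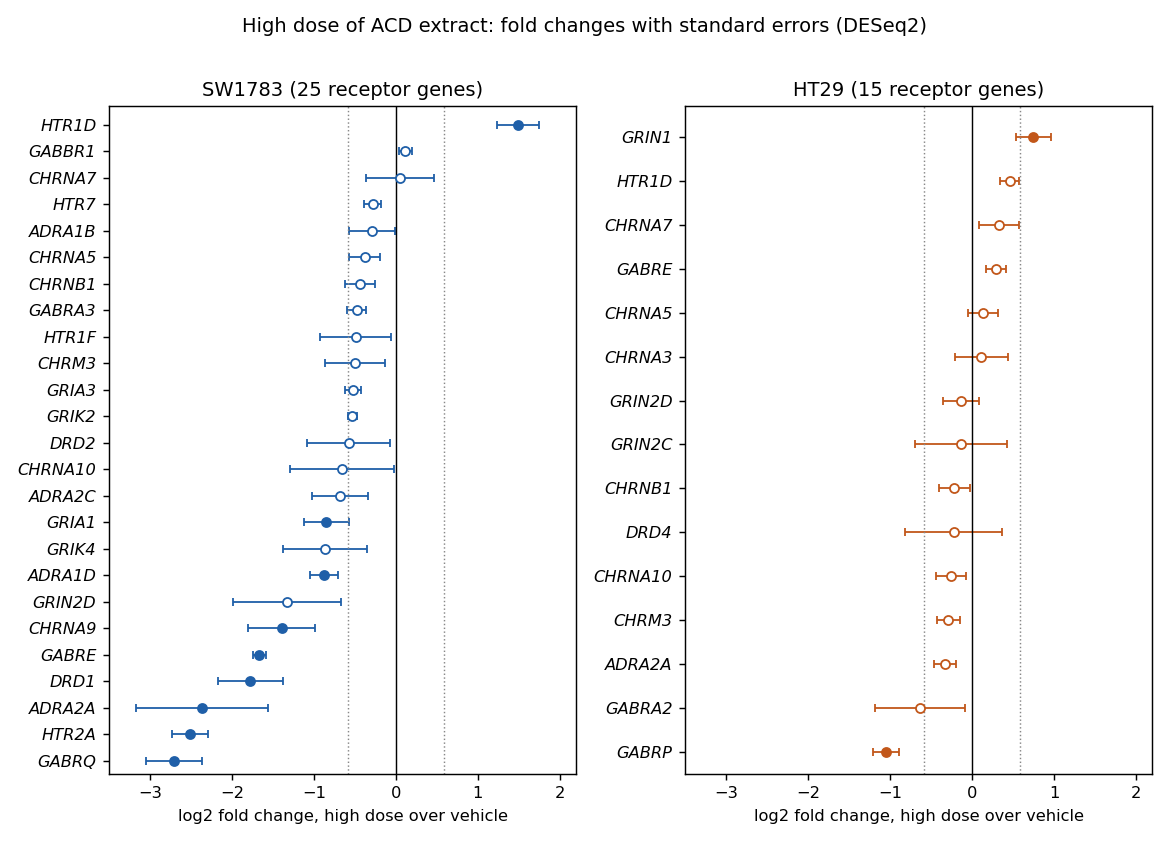
Log2 fold changes at the high dose with standard errors for 25 of the 26 receptor genes transcribed in SW1783 (left) and the 15 in HT29 (right), ordered by value. Filled points are DEGs (DESeq2), and dotted lines mark the 1.5-fold limits. In SW1783 the values run from −2.71 (GABRQ) to 1.49 (HTR1D), and in HT29 from −1.05 (GABRP) to 0.75 (GRIN1).

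In HT29 the extract changed few receptor genes. At the high dose 22 had an adjusted p and 3 were DEGs, 2 up and 1 down, beside 2.92% of all genes tested (1.29% up, 1.63% down), and their median log2 fold change was 0.01. At the medium dose 1 of 22 was a DEG, upward, beside 0.827% (0.426% up). At the low dose DESeq2 called 0 of 20, with 2 at an unadjusted p under 0.05, and edgeR also called 0, beside 0.321%. Summed receptor transcripts took 227 ± 14.7 CPM (SD, n = 3) in the vehicle, 248 ± 13.03 under low, 245 ± 5.83 under medium and 205.5 ± 31.5 under high dose, with overlapping libraries. These sums were not corrected for the mitochondrial ribosomal RNA share either.

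GABRP, the epithelial GABA-A subunit gene, fell at the high dose. Its normalized counts were 315, 363 and 355 in the vehicle, 352, 435 and 384 under low, 271, 298 and 273 under medium and 160.5, 217 and 134 at the high dose. The high-dose libraries lay below all others, and the medium ones below the vehicle. The log2 fold change was −1.05 ± 0.16 (adjusted p = 1.36e-08, DESeq2) at the high dose, −1.25 without replicate 2 of that dose, and −0.30 ± 0.16 (adjusted p = 0.483) at the medium dose. The high dose was also lower than the medium dose by −0.75 ± 0.16 (adjusted p = 6.25e-04, DESeq2), the only DEG of 13 receptor genes tested there, beside 0.7% of all genes (0.312% lower).

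HTR1D was the DEG of the medium dose in HT29. It had 192, 217 and 186 normalized counts in the vehicle, 249, 219 and 206 under low, 355, 336.5 and 346 under medium and 279, 256 and 283 at the high dose. The medium libraries were the highest, and those of the high dose lay between them and the vehicle. The log2 fold change was 0.79 ± 0.11 (adjusted p = 2.93e-09, DESeq2) under medium and 0.46 ± 0.12 (adjusted p = 0.00334) at the high dose, under the fold limit, and the difference of high from medium was −0.33 ± 0.11 (adjusted p = 0.119).

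GRIN1 had 60.9, 63.7 and 47.9 normalized counts in the HT29 vehicle and 119, 85.5 and 85.9 at the high dose. The groups did not overlap and the log2 fold change was 0.75 ± 0.22 (adjusted p = 0.0118, DESeq2), but the call was lost without high-dose replicate 1 (0.57, adjusted p = 0.137) or without vehicle replicate 3 (0.63, adjusted p = 0.106). Its partner GRIN2D had 887, 922 and 908 normalized counts in the vehicle and 1035, 480 and 953.5 at the high dose, where replicate 2 was far below the other two.

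**Figure D4:**
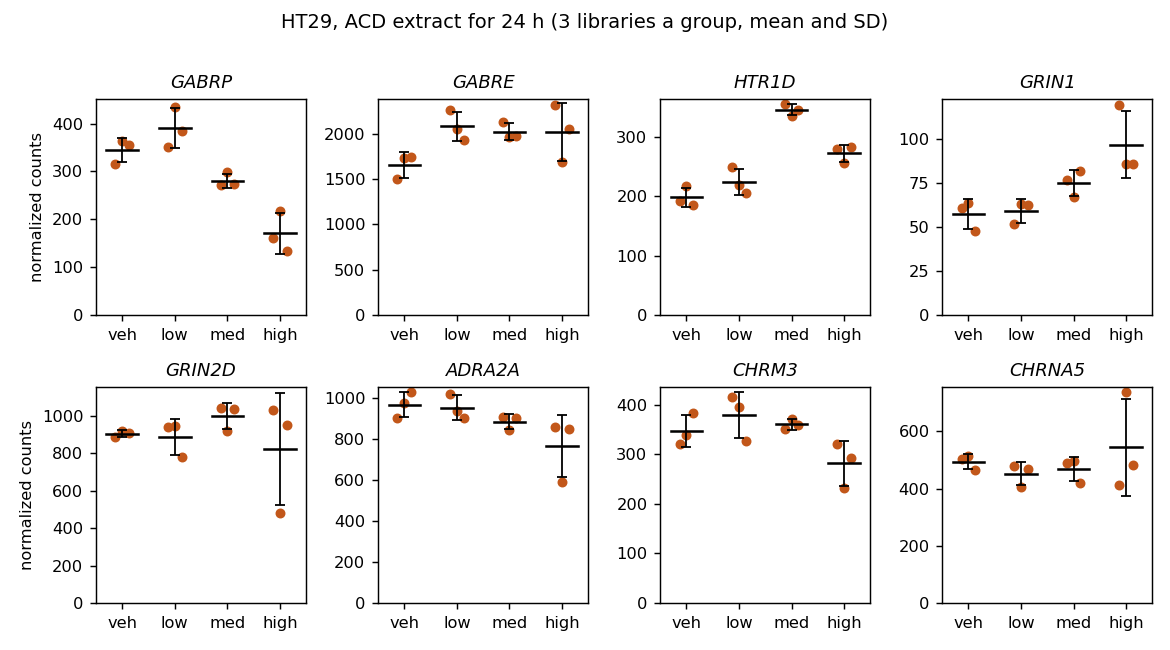
Normalized counts of 8 receptor genes in HT29 cells under vehicle and the low, medium and high dose of the ACD extract. Points are libraries (3 a group), bars are means and whiskers are SD. GABRP is lowest at the high dose, HTR1D peaks at the medium dose, and in GRIN2D and ADRA2A 1 high-dose library, at 480 and 593, sits far below the others.

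The abundant receptor genes ADRA2A, CHRM3 and GABRE were not DEGs in HT29. ADRA2A had 904, 975 and 1030 normalized counts in the vehicle and 861, 593 and 850 at the high dose (log2 fold change −0.33 ± 0.13, adjusted p = 0.111, DESeq2), and CHRM3 gave −0.29 ± 0.14 (adjusted p = 0.219). GABRE had 1496, 1731 and 1744 normalized counts in the HT29 vehicle, 2133, 1962 and 1975 under medium and 2323, 1691 and 2053 at the high dose. These values overlapped at the high but not at the medium dose, and the log2 fold change was 0.29 ± 0.12 at either dose (adjusted p = 0.134 high, 0.277 medium, DESeq2).

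Whether the response at the high dose differed between the lines was tested as an interaction. Of 38 receptor genes tested 3 differed, beside 14.6% of all genes tested. The interaction had a wide error where 1 line had no vehicle count, with an SE of 1.67 for GRIK2, 1.67 for HTR7 and 1.68 for GABRP. Such genes could hardly be called, so a gene not called is not shown to respond alike in both lines. GABRE differed by −2.00 ± 0.14 on the log2 scale (adjusted p = 3.41e-43, DESeq2), with −1.67 in SW1783 and 0.29 in HT29. HTR1D differed by 0.99 ± 0.22 (adjusted p = 8.60e-05, DESeq2), with 1.49 in SW1783 and 0.46 in HT29. ADRA2A differed by −2.07 ± 0.67 (adjusted p = 0.00949, DESeq2), on counts near the floor in SW1783, and the adjusted p was 0.0714 without high-dose SW1783 replicate 2. The count of differing genes was 5 without the high-dose HT29 library of replicate 2. For HTR2A and GABRQ no count was seen in the HT29 vehicle, and the interaction, at −2.70 ± 1.69 and −2.90 ± 1.72, was not called (adjusted p = 0.253 and 0.223, DESeq2).

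Wortmannin gave another picture. In SW1783 2 of 21 tested receptor genes were DEGs, both up, beside 2.72% of all genes tested (1.74% up), and in HT29 3 of 12, all up, beside 2.65% (1.92% up). Summed receptor transcripts took 250.2 ± 2.88 CPM (SD, n = 3) in the SW1783 vehicle of batch A and 276 ± 5.11 under wortmannin, and 223 ± 13.5 and 292 ± 7.37 in HT29, with no overlap in either line.

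In SW1783 the DEGs were both acetylcholine receptors. CHRM3 had 33.5, 35.1 and 31.7 normalized counts in the vehicle and 55.6, 68.1 and 55.2 under wortmannin, a log2 fold change of 0.83 ± 0.29 (adjusted p = 0.0144, DESeq2). CHRNA9 had 49.1, 45.2 and 43.1 against 76.4, 68.1 and 78.8, a log2 fold change of 0.70 ± 0.25 (adjusted p = 0.0181, DESeq2). Neither gene overlapped between the groups. Both calls depended on single libraries. For CHRM3 the adjusted p was 0.0522, 0.0653 and 0.119 without vehicle replicates 2 and 3 and wortmannin replicate 2, and for CHRNA9 it was 0.0800, 0.0818, 0.0910 and 0.106 without vehicle replicates 2 and 3 and wortmannin replicates 1 and 3 (DESeq2). GABRE (1155, 1278 and 1190 against 1730, 1599 and 1548 normalized counts) passed the adjusted p but not the fold limit, with a log2 fold change of 0.43 ± 0.06 (adjusted p = 1.43e-11, DESeq2), and so did CHRNA5 at −0.50 ± 0.15 (adjusted p = 0.00463). The exons of CHRM3 overlap an antisense gene.

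In HT29 the DEGs were a GABA-A, a serotonin and an adrenergic receptor. GABRP had 349, 340 and 311 normalized counts in the vehicle and 715, 761.5 and 782 under wortmannin, a log2 fold change of 1.18 ± 0.10 (adjusted p = 5.72e-30, DESeq2). HTR1D had 167, 180.5 and 190 against 412, 373 and 379, a log2 fold change of 1.11 ± 0.13 (adjusted p = 3.86e-16, DESeq2). ADRA2A had 869, 880 and 868 against 1340, 1313 and 1315, a log2 fold change of 0.60 ± 0.07 (adjusted p = 1.86e-15, DESeq2), just past the fold limit. None of these groups overlapped. GABRP was thus higher under wortmannin, whereas it was lower under the high dose of the extract, and HTR1D was higher under wortmannin and under the medium dose.

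**Figure D5:**
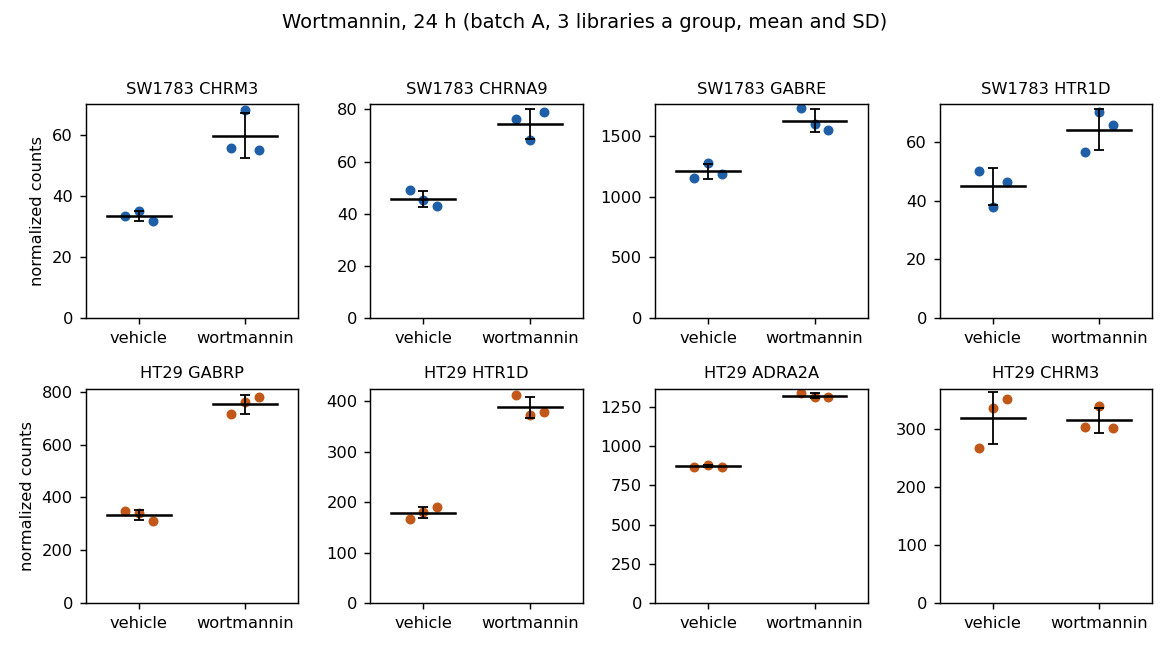
Normalized counts under the batch A vehicle and 10 µM wortmannin for 4 receptor genes of SW1783 (top) and 4 of HT29 (bottom). Points are libraries (3 a group), bars are means and whiskers are SD. Groups do not overlap for CHRM3, CHRNA9, GABRE and HTR1D in SW1783 or for GABRP, HTR1D and ADRA2A in HT29, and they do for CHRM3 in HT29.

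The interaction of line and wortmannin passed for 2 of 18 receptor genes tested, beside 3.36% of all genes. This count has the same limit, since GRIK2, HTR7 and GABRP, without a vehicle count in 1 line, had an SE of 1.67 each. CHRM3 differed by 0.83 ± 0.26 (adjusted p = 0.0121, DESeq2), up in SW1783 and at −0.02 ± 0.14 in HT29. HTR1D differed by −0.61 ± 0.23 (adjusted p = 0.04997, DESeq2), at the edge of the threshold and lost in 13 of 17 alternative fits (adjusted p up to 0.197), with 1.11 in HT29 and 0.52 ± 0.27 (adjusted p = 0.124) in SW1783. GABRE gave 0.22 ± 0.10 (adjusted p = 0.104, DESeq2).

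Companion genes of the receptors, listed by function, are set beside the 18.2% of all genes that were DEGs at the high dose in SW1783 (9.57% down, 8.66% up). Of 20 receptor auxiliary subunits and chaperones 13 were tested, with 1 DEG up and 5 down and a median log2 fold change of −0.43. LYPD1, a modulator of nicotinic receptors, had a log2 fold change of −2.81 ± 0.11, and NETO2, an auxiliary subunit of kainate receptors such as those of GRIK2, −1.10 ± 0.04. CACNG4, an AMPA receptor auxiliary subunit, gave −1.23 ± 0.15, while CNIH3, an AMPA receptor export factor, rose by 1.28 ± 0.10 (adjusted p under the threshold in each, DESeq2). Of 18 receptor scaffolds 14 were tested, with 2 DEGs up, DLG3 and HOMER2, and none down.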

How the data were processed

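RNA was sequenced as 100 bp paired-end reads of strand-specific poly(A) libraries on an MGI instrument. The authors trimmed reads (Trim Galore), aligned them with STAR and estimated gene abundance with RSEM, and the submitters' processing notes give FastQC 0.11.9, Trim Galore 0.6.5, STAR 2.7.3a and RSEM 1.3.3. The study's methods name other versions of Trim Galore and STAR, and the build is given as GRCh38 in the labels. The deposited values were the authors' expected counts per gene for each library, not normalized, of which 8.84% were not whole numbers, and they were rounded here.

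Symbols, positions and exon lengths came from GENCODE v44 (GRCh38) by gene identifier, which matched 56558 of 60675 genes. Each comparison was fitted over all genes with DESeq2 1.42.0 in R 4.3.3 (Wald test, two-sided, Benjamini-Hochberg adjustment), with the 12 batch B libraries or the 6 batch A libraries of a line in a fit, the 6 batch B vehicles for the line comparison, and the interaction of line and treatment for differences between lines. DEGs had an adjusted p under 0.05 and a change over 1.5-fold. Genes that DESeq2 left without an adjusted p were not counted as tested. Normalized counts are counts divided by DESeq2's size factors of the fit. Alternatives were edgeR 4.0.16 (quasi-likelihood), TMM factors, no fold threshold, a low-count filter, fewer or more libraries in a fit, a replicate block and leaving out each library. Another took size factors without the genes of the mitochondrial genome and the ribosomal RNA genes. The direct contrast of high and medium dose was added after the data were seen. The functions were tested on simulated data.

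Receptor genes named in the text were the DEGs of any treatment or interaction comparison with a mean above 10 normalized counts in a group compared, the 5 highest per length in each line, and the highest transcribed member of each family in each line. The values of 1 receptor gene are included in the counts but are not reported here. Other receptor genes were named after their values were seen. Companion genes were named where they were DEGs with a mean above 100 normalized counts or among the largest changes. Members, marker lists and companion lists were chosen with earlier results of these data known.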

Additional observations from a re-analysis of the deposited data

Results flagged for a closer look

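The responses of 5 receptor gene and treatment pairs differed between the lines in a test of the difference itself. At the high dose the log2 fold change in SW1783 minus that in HT29 was −2.00 for GABRE, −2.07 for ADRA2A and 0.99 for HTR1D. Under wortmannin it was 0.83 for CHRM3 and −0.61 for HTR1D, the last lost in 13 of 17 alternative fits. GABRE at the medium dose is listed because its libraries lay on opposite sides of their vehicles without overlap, with log2 fold changes of −0.24 in SW1783 (adjusted p = 0.00239, DESeq2) and 0.29 in HT29 (adjusted p = 0.277). Both were short of the fold limit, and that difference between the lines was not tested.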

How the results depend on the processing

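Of 35 changes of named receptor genes, 407 of 454 checks under other settings kept the direction and the call, 47 lost the call and 0 turned the direction, and in 8 more DESeq2 gave no adjusted p. The count of SW1783 DEGs at the medium dose was 3 and became 8 without the fold threshold and 5 with the vehicles of both batches pooled. Same-numbered vehicles of both batches were closer than vehicles within a batch (chi-square per degree of freedom 1.46 to 1.64 against 2.06 to 17.3), so the pooled fit may count 3 sources as 6. Under wortmannin in SW1783 it was 2 and became 4 without the fold threshold and 4 with edgeR. In HT29 it was 3 at the high dose and became 1 when only the groups compared were fitted, and the 1 gene that differed between high and medium dose, GABRP, became 0 there (adjusted p = 0.0565). DRD1 and CHRNA9 lost their calls between high and medium dose in SW1783 in that fit (adjusted p = 0.0876 and 0.110, DESeq2), and in 5 and 7 of 12 alternative fits in all. The 2 interactions with wortmannin became 1 with edgeR and 1 with TMM factors. The cause of these shifts was not tested.

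With 1 library left out, DEGs ranged from 9 to 11 (SW1783 high dose), 2 to 4 (medium), 0 to 0 (low), 6 to 7 (high against medium) and 0 to 2 (wortmannin), and in HT29 from 1 to 2 (high), 1 to 1 (medium), 0 to 0 (low), 1 to 1 (high against medium) and 3 to 3 (wortmannin). The line comparison ranged from 31 to 35, interactions from 2 to 5 at the high dose and 0 to 2 under wortmannin, and transcribed genes from 25 to 26 (SW1783) and from 13 to 15 (HT29). The interactions numbered 5 without high-dose HT29 replicate 2. Those under wortmannin numbered 0 without wortmannin-treated SW1783 replicate 2.

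Libraries with the same replicate number did not deviate together in every pair of any comparison, so the numbers were not taken to pair the samples. With the replicate block, SW1783 DEGs under wortmannin became 0 (CHRNA9 adjusted p = 0.154, CHRM3 without one), HT29 DEGs at the high dose 2 and interactions with wortmannin 1. DRD1 and CHRNA9 between high and medium dose had adjusted p = 0.0547 and 0.0892 there. Genes near the floor of 3 counts, such as ADRA2A and CHRM2 in SW1783, are limited by depth.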

Other observations

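Genes around transmitter signalling were followed in the same fits. Among 15 receptor kinases, arrestins and RGS proteins, all tested at the high dose in SW1783, 2 were DEGs up and 1 down, beside 18.2% DEGs among all genes tested. That is the share to set beside the counts of the other SW1783 lists as well. RGS2, a GTPase activator for Gq, went from 185 ± 7.17 to 74.9 ± 8.82 normalized counts, given as mean ± SD over 3 libraries, which is −1.298 ± 0.17 on the log2 scale. RGS16 went from 0.347 to 21.7 ± 3.74 normalized counts, and RGS20 gave a log2 fold change of 1.28. Among 22 transmitter transporters 7 were tested, with 1 DEG up and 1 down. SLC1A3, the glial glutamate transporter GLAST, fell from 690 ± 21.8 to 126 ± 4.28 normalized counts, a log2 fold change of −2.45 ± 0.11. Of 18 synthesis and breakdown enzymes 10 were tested and 1 was a DEG, the monoamine oxidase gene MAOB, down from 507 ± 40.4 to 294 ± 17.3 normalized counts.

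In HT29 at the high dose, 1 of 5 transporters tested rose (2.92% of all genes tested were DEGs there), SLC22A3, an organic cation transporter that clears monoamines, from 160 ± 9.80 to 422 ± 37.2 normalized counts, a log2 fold change of 1.41 ± 0.12. It gave 1.298 ± 0.12 at the medium dose in HT29 and 0.69 at the high dose in SW1783. RGS20 and ABAT were named after their values were seen. Under wortmannin ABAT, which breaks down GABA, was a DEG up in both lines, at 0.63 in SW1783 and 1.13 in HT29.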
